A study of Mus musculus with 4 samples.

Results

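The genes described here encode the proteasome and immunoproteasome. They were all rows whose symbol starts with Psma, Psmb, Psmc, Psmd, Psme, Psmf or Psmg followed by a digit, with names containing -ps left out. This gave 51 of the 47561 gene symbols, and Psmb8, Psmb9 and Psmb10 are the immunoproteasome subunits among them. A level of at least 1 FPKM (read fragments per length of transcript and per mapped fragments of the library) in at least 2 libraries was required for testing, and 50 of the 51 met it. Psmb11, the thymus-specific beta subunit, was listed at 0 in Metrn cKO 2 and both Metrn f/f libraries and at 0.0247 FPKM in Metrn cKO 1, and was not tested. The symbol rule also takes in Psmc3ip, a recombination cofactor, Psme2b, a copy of Psme2, and Psme3ip1, a partner of Psme3, which are not proteasome subunits and were kept apart.

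Stem cells and multipotent progenitors, as LSK cells (Lin-, Sca-1+ and c-Kit+), were sorted from the bone marrow of 12-week-old C57BL/6 mice. Metrn cKO mice carried a floxed Metrn gene and LysM, the lysozyme M locus used to drive deletion in myeloid cells, and Metrn f/f mice carried the floxed gene alone and are labelled wild type. Each group had 2 mice, and each mouse gave 1 RNA-seq library. Metrn encodes Meteorin, a secreted protein. The driver locus is known for its activity in myeloid cells, and its gene, Lyz2, had 2904 and 245 FPKM in Metrn cKO, against 290.4 and 2406 FPKM in Metrn f/f.

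The proteasome is the main protease of the cytosol and nucleus and degrades proteins tagged with ubiquitin. Its core particle, the 20S proteasome, is a barrel of alpha rings that gate the entry and beta rings that carry the proteolytic sites, and the 19S particle binds, unfolds and deubiquitinates substrates. In cells of the immune system and after interferon gamma, the catalytic subunits encoded by Psmb5, Psmb6 and Psmb7 are replaced in new particles by those encoded by Psmb8, Psmb9 and Psmb10, which favours peptides that bind MHC class I. Blood stem cells are known to keep a low rate of protein synthesis and to depend on protein quality control.

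Start regions of 4 members are shown because these genes stand for the roles compared here: the immunoproteasome genes Psmb8 and Psmb9, the constitutive counterpart of Psmb8, Psmb5, and the 19S scaffold gene Psmd2. Each is the 250 bases before the RefSeq start on GRCm38.p6, read 5′ to 3′ on the strand of the gene. The windows are chr17:34197945-34198194 on the plus strand for Psmb8, chr17:34187331-34187580 on the minus strand for Psmb9, chr14:54617996-54618245 on the minus strand for Psmb5 and chr16:20651402-20651651 on the plus strand for Psmd2. The RefSeq start is not always the GENCODE one. In GENCODE, Psmb8 (chr17:34197721-34201454) and Psmb9 (chr17:34181987-34187764) span their whole windows, and Psmb5 (chr14:54614119-54618022) spans part of its window. Statements on motif position therefore hold for the RefSeq start only. Capitals mark matches to the motifs named after them.
Psmb8: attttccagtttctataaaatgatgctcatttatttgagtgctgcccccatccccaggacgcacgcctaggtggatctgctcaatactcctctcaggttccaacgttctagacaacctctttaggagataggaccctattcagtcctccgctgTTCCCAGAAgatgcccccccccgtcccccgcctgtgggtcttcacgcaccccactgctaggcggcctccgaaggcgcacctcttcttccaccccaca
Psmb9: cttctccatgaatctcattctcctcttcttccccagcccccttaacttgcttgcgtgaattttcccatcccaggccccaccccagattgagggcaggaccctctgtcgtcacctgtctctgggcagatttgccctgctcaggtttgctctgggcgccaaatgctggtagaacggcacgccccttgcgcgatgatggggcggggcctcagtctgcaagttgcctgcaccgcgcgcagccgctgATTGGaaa
Psmb5: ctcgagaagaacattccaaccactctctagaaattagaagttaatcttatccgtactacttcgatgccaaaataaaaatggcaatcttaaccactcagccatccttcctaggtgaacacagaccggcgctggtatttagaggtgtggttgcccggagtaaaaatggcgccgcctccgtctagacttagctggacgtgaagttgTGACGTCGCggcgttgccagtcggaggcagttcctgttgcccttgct
Psmd2: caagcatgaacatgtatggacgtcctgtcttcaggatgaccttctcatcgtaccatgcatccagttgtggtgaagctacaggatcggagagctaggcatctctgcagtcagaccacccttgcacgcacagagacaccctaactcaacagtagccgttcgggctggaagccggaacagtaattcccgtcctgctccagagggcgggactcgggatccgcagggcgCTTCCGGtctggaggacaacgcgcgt

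The 5 motifs were searched on both strands of 300-base windows, from 250 bases before to 50 after the start. They were the gamma-activated site bound by STAT factors (TTCNNNGAA), the core of the interferon-stimulated response element, the core of the antioxidant response element bound by NRF factors (TGACNNNGC), the CCAAT box and the core of ETS factor sites (CCGGAAG). RefSeq windows were found for 43 of the 51 members. In the windows shown, Psmb8 had a gamma-activated site and Psmb9 a CCAAT box on the minus strand close to the RefSeq start. Psmb5 had an antioxidant response core and Psmd2 an ETS core on the minus strand. The 65 matches in the members' windows included no overlap between different motifs. The ETS core was in the windows of 16 of the 43 members (37.2%), against 9.93% of all 27025 genes with a window, and 6 of the 9 non-ATPase 19S genes with a window held it. The interferon-stimulated response core was in 5 of the 43 (11.6%), against 3.99% of all genes. These were Psmb3, Psmd4, Psmd9, Psme1 and Psmg4, and the windows of Psmb8, Psmb9 and Psmb10 did not hold it. The CCAAT box was in 16 of the 43 (37.2%), among them 5 of the 7 alpha ring genes, against 41.1% of all genes. The antioxidant response core was in 6 of 43 members (13.95%, against 13.99% of all genes) and the gamma-activated site in 3 of 43 (6.98%, against 9.55% of all genes). The windows were not matched for base composition, and a match is a string of letters and not a measured site.

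Libraries of the same genotype differed widely, which touches every result that follows. FPKM summed to 562401 in Metrn cKO 1 and 412955 in Metrn cKO 2, against 392717 in Metrn f/f 1 and 671802 in Metrn f/f 2, and read totals were unknown. Pearson's r of log2(FPKM + 1) over the 13148 tested genes was 0.982 between Metrn cKO 2 and Metrn f/f 1 and 0.937 between Metrn cKO 1 and Metrn f/f 2, while the other pairs had 0.836 to 0.877. All 10 listed neutrophil markers were tested and summed to 58466 and 2023 FPKM in Metrn cKO libraries 1 and 2 and to 2577 and 32574 FPKM in Metrn f/f libraries 1 and 2. In the same order, 10 macrophage and monocyte markers summed to 1149, 372, 418 and 1877 FPKM, 8 antigen-presenting cell markers to 2494, 462, 511 and 2779, 10 B and plasma cell markers to 10961, 316, 220.2 and 3484, and 10 erythroid markers to 31500, 3223, 3987 and 37673. Ms4a1, a B cell marker, was listed at 0 in Metrn cKO 2. The 10 T and NK cell markers, 9 of them tested, summed to 205 and 166 against 166 and 282 FPKM, mostly Nkg7, with Cd3e, Trac and Ncr1 listed at 0 in Metrn cKO 2 and Cd3d at 0 in Metrn f/f 1. Of the 10 sort and stem cell markers of LSK cells, 9 met the level for testing, and all 10 summed to 354 and 1047 FPKM in Metrn cKO, against 952 and 509 FPKM in Metrn f/f. Slamf1, a stem cell marker, did not meet it, with 0.363 and 0.637 FPKM in Metrn cKO, against 0.772 and 1.10 FPKM in Metrn f/f. The sums cover genes that went different ways. Kit had 25.9 and 116 FPKM in Metrn cKO, against 108 and 24.8 FPKM in Metrn f/f. Ly6a, the Sca-1 gene, had 48.4 and 38.2 against 37.2 and 83.2 FPKM. Flt3, on the antigen-presenting cell list, had 78.3 and 189 against 153 and 48.7 FPKM. Metrn itself had 42.3 and 36.7 FPKM in Metrn cKO, against 29.3 and 66.3 FPKM in Metrn f/f, so its groups overlapped.

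Proteasome genes together took 0.661% and 0.755% of the summed FPKM in the Metrn cKO libraries, against 0.748% and 0.796% in the Metrn f/f libraries. The 20 most abundant genes of each library took 21.9% and 9.28% of that sum in Metrn cKO, against 8.71% and 17.3% in Metrn f/f. The shares of proteasome genes therefore depend on a few abundant transcripts as well. The members spanned a wide range of levels. By mean FPKM per length over the 4 libraries, Psme1 came first at 248, followed by Psmb8 at 206, Psmb4 at 180 and Psmb9 at 157, so that 2 of the 3 immunoproteasome genes were among the 4 most abundant members. Psma8, an alpha subunit of germ cells, came last of the tested members at 1.73 FPKM, just inside the level required for testing in the Metrn cKO libraries. The tested members were highest in Metrn f/f 2 in 41 of 50 cases (82.0%), against 29.8% of all tested genes. In the plot of levels by library the points of Metrn f/f 2 lie to the right for the core particle, and Psmd1, Psmd2, Psmd11 and Psme4 are the 4 genes with their lowest point there.

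**Figure D1:**
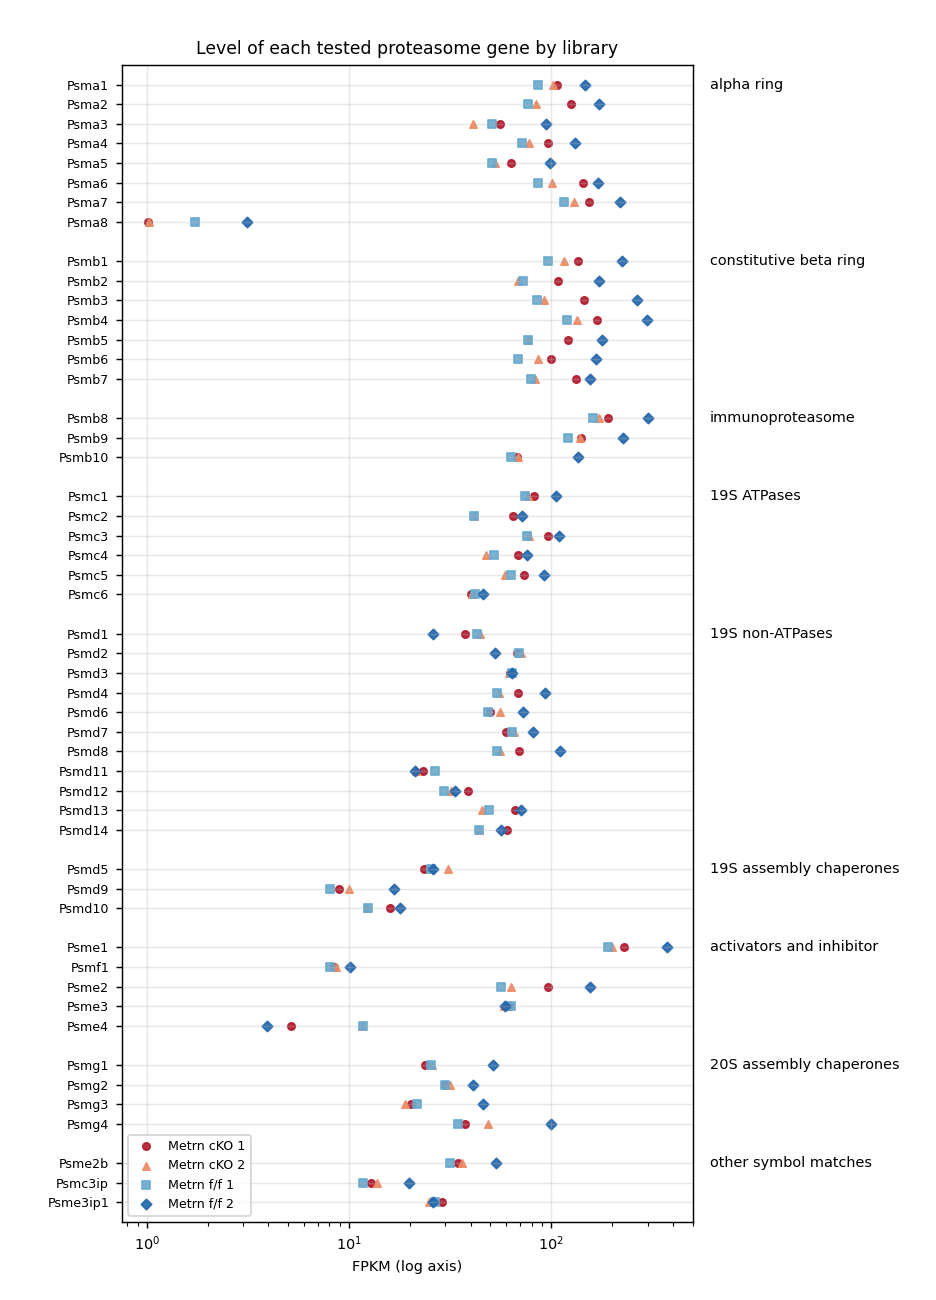
Level of each of the 50 tested proteasome genes in each library, in FPKM on a log axis, with genes ordered by role. Each point is 1 library; Metrn f/f 2 was the highest library for 41 of the 50 genes.

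Metrn cKO libraries were compared with those of Metrn f/f to ask whether proteasome transcripts of LSK cells differ with this deletion. No proteasome gene passed limma's test with Benjamini-Hochberg adjustment over the 13148 tested genes. Every member had an adjusted p of 1.00, and the smallest unadjusted p of a member was 0.211, for Psma8. Among all tested genes 0 passed in either direction (0.0% higher, 0.0% lower), and 8 had an unadjusted p under 0.05 with a higher level (0.0608%) and 31 with a lower level (0.236%) in Metrn cKO, none of them a member. The log2 fold change of Metrn cKO over Metrn f/f, on the log2(FPKM + 1) scale, was below 0 for 43 of 50 members, against 42.4% of all tested genes, and its median was -0.18 for the members and 0.07 for all tested genes. Without Metrn f/f 2 the median of the members was 0.17, so this 1 library sets the sign. In no member did both Metrn cKO libraries exceed both Metrn f/f libraries (6.31% of all tested genes did so), and in 4 of 50 both lay below (5.73% of all tested genes), namely Psma8, Psmc6, Psmd3 and Psmg3. With 2 libraries a group, an exact permutation test of a single value could not give a p below 0.333.

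**Figure D2:**
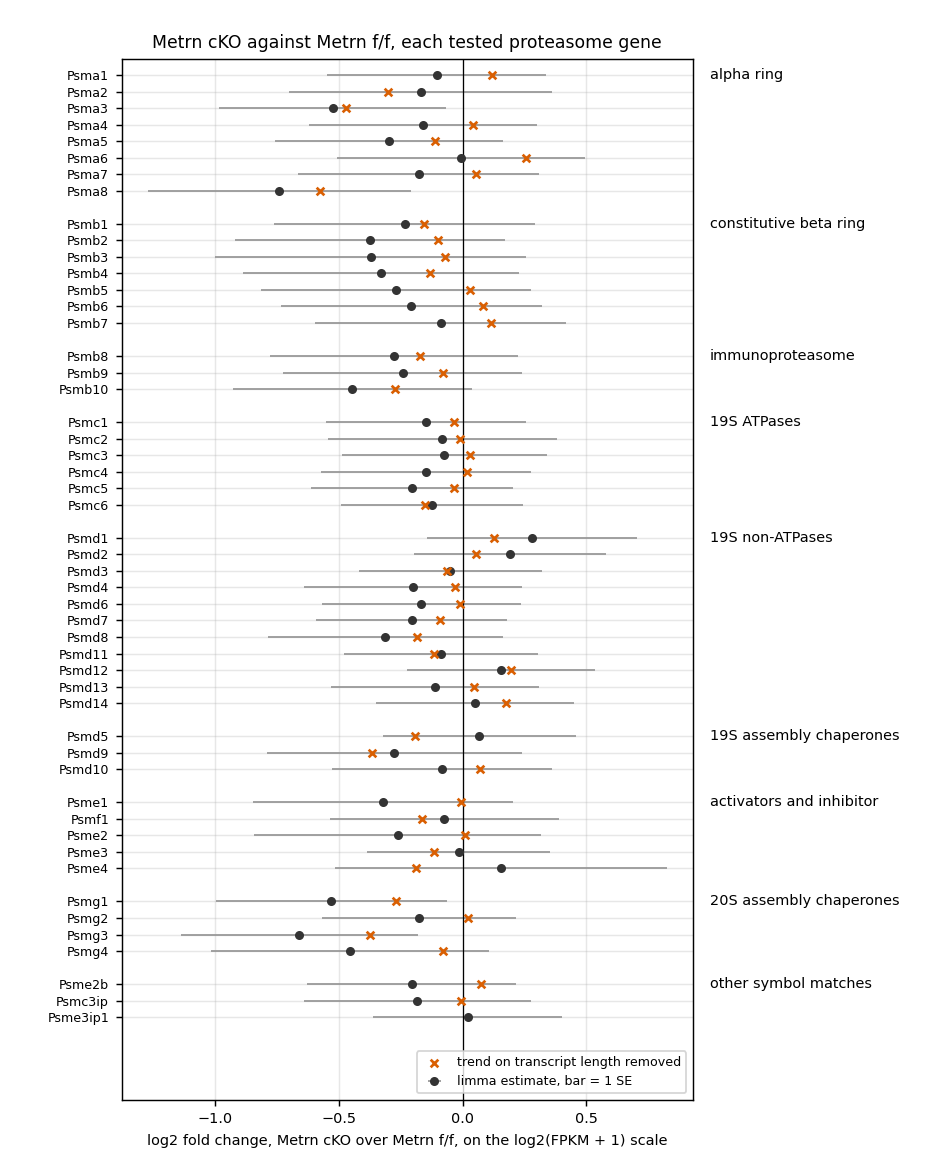
The log2 fold change of Metrn cKO over Metrn f/f for each tested proteasome gene, with 1 standard error of limma as a bar, and the same after the trend on transcript length was removed in each library (crosses). For 43 of the 50 genes the dot lies left of 0, and no gene passed the test.

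The alpha ring genes, which encode the outer rings and the gate of the core particle, were led by Psma7 and, Psma8 aside, ended with Psma3 or Psma5 in each library. Psma1 to Psma7 were measured between 56.1 and 153 FPKM in Metrn cKO 1 and between 41.3 and 129 in Metrn cKO 2, against 51.1 to 116 in Metrn f/f 1 and 94.7 to 219 in Metrn f/f 2. Within a library the highest of these 7 genes, Psma7 each time, was 2.26 to 3.13 times the lowest. Of the 8 alpha genes with Psma8 included, all 8 had a log2 fold change below 0, with a median of -0.17, and the range ran from -0.74 for Psma8 to -0.01 for Psma6. Psma8 had 1.01 and 1.02 FPKM in Metrn cKO, against 1.73 and 3.15 FPKM in Metrn f/f. The groups did not overlap, at levels near the required minimum (log2 fold change -0.74, SE 0.53, unadjusted p = 0.211 by limma).

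The constitutive beta ring genes, Psmb1 to Psmb7, stood highest in Metrn f/f 2. They were measured between 99.7 and 168 FPKM in Metrn cKO 1 and between 68.8 and 134 in Metrn cKO 2, against 68.4 to 120 in Metrn f/f 1 and 156 to 297 in Metrn f/f 2. Psmb2, a structural beta subunit, had 108 and 68.8 FPKM in Metrn cKO, against 72.4 and 173 FPKM in Metrn f/f. Its log2 fold change of -0.37 (SE 0.55) was the most negative of the 7, and the groups overlapped. Psmb3 differed most between the Metrn f/f libraries, at 3.09 times its Metrn f/f 1 level in Metrn f/f 2. Between the Metrn cKO libraries Psmb7 was the furthest apart with Metrn cKO 1 higher, at 1.597 times its Metrn cKO 2 level, followed by Psmb5 at 1.58 and Psmb3 at 1.57 times.

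The immunoproteasome genes were abundant in all 4 libraries. Psmb8, which encodes the chymotrypsin-like subunit of the immunoproteasome (chr17:34197721-34201454 of GRCm38), had 191 and 172 FPKM in Metrn cKO, against 161 and 301 FPKM in Metrn f/f. Both Metrn cKO values lay between the Metrn f/f values, and the mean was 182 ± 13.6 FPKM in Metrn cKO and 231 ± 98.5 FPKM in Metrn f/f (SD, n = 2 each). Its fold change on the log2 scale was -0.28 (SE 0.50), or 0.17 with Metrn f/f 2 left out. Psmb9 (chr17:34181987-34187764), which takes the place of Psmb6, had 141 and 139 FPKM in Metrn cKO, against 121 and 228 FPKM in Metrn f/f. Its Metrn cKO values again lay between those of Metrn f/f, with a log2 fold change of -0.24 (SE 0.48). Psmb10, which takes the place of Psmb7, had 67.5 and 68.5 FPKM in Metrn cKO, against 63.5 and 136 FPKM in Metrn f/f. Both Metrn cKO values lay close to Metrn f/f 1 and far below Metrn f/f 2, with a log2 fold change of -0.44 (SE 0.48). Leaving out Metrn f/f 2 gave 0.21 for Psmb9 and 0.10 for Psmb10.

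The constitutive counterparts were measured in the same libraries. Psmb5, the chymotrypsin-like subunit of the constitutive particle (chr14:54614119-54618022), had 122 and 77.1 FPKM in Metrn cKO, against 76.5 and 179 FPKM in Metrn f/f (log2 fold change -0.27, SE 0.55). Psmb6, the caspase-like subunit, had 99.7 and 85.9 FPKM in Metrn cKO, against 68.4 and 167 FPKM in Metrn f/f (log2 fold change -0.21, SE 0.53). Psmb7, the trypsin-like subunit, had 133 and 83.0 FPKM in Metrn cKO, against 79.8 and 156 FPKM in Metrn f/f (log2 fold change -0.09, SE 0.51). All 3 had overlapping groups, with Metrn cKO 1 and Metrn f/f 2 above the other library of their genotype.

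The ratio of an immunoproteasome gene to its counterpart is free of any factor that scales a whole library, but not of a trend on transcript length, since the genes of a pair differ in length (1628 bases for Psmb8 and 760.5 bases for Psmb5). Psmb8 exceeded Psmb5 in every library, with a ratio of FPKM of 1.57 and 2.23 in Metrn cKO, against 2.108 and 1.68 in Metrn f/f. The mean ratio was 1.90 ± 0.466 in Metrn cKO and 1.89 ± 0.303 in Metrn f/f (SD, n = 2 each), so the genotypes differed by less than the spread within each. Psmb9 exceeded Psmb6 in every library as well, at 1.41 and 1.62 times in Metrn cKO, against 1.77 and 1.36 times in Metrn f/f. Psmb10 lay below Psmb7 in every library, with a ratio of 0.509 and 0.825 in Metrn cKO, against 0.796 and 0.869 in Metrn f/f. Metrn cKO 1 stood apart from the other 3 libraries in this last ratio. The difference of the mean log2 ratio, Metrn cKO minus Metrn f/f, was -0.01 for Psmb8 over Psmb5, -0.03 for Psmb9 over Psmb6 and -0.36 for Psmb10 over Psmb7. The last became -0.01 without Metrn cKO 1. With the length trend described further on removed, the differences were -0.20, -0.16 and -0.39 in the same order. For the 3 pairs in sum the ratio was 1.13 and 1.54 in Metrn cKO, against 1.54 and 1.32 in Metrn f/f. As deposited, the ratio of sums was lower in Metrn cKO 1 and Metrn f/f 2. These libraries also had the higher sums of neutrophil, macrophage, B cell and erythroid markers given above. With the length trend removed, the pairs were not low in Metrn f/f 2. There Psmb8, Psmb9 and Psmb10 deviated from their gene means by 0.38, 0.24 and 0.40, against 0.04, 0.07 and 0.08 for Psmb5, Psmb6 and Psmb7. In Metrn cKO 1 the values were 0.03, -0.02 and -0.14, against 0.22, 0.04 and 0.37. The part of the marked cell types in the ratio was not tested. In bulk libraries, fewer cells of a type and less RNA per cell cannot be told apart.

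**Figure D3:**
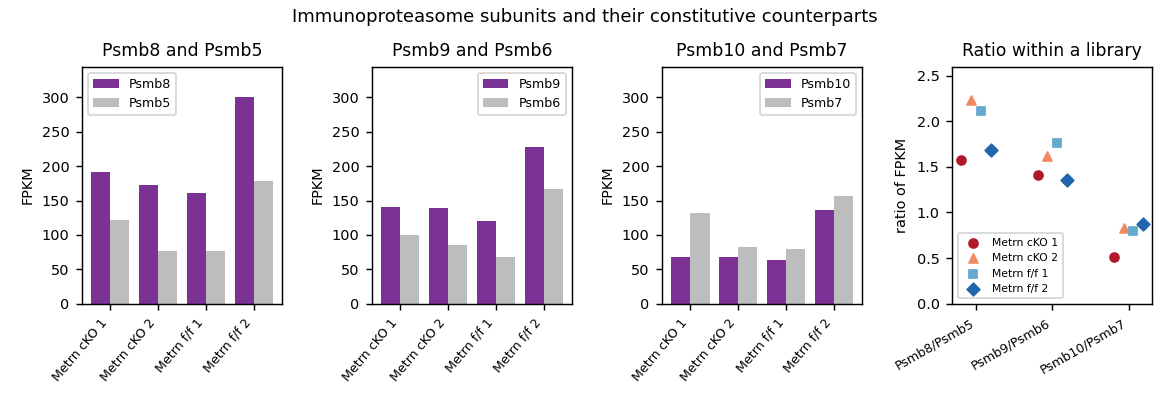
FPKM of each immunoproteasome gene (purple bars) and its constitutive counterpart (grey bars) in each library, and the ratio within each library at the right. Psmb8 and Psmb9 lie above their counterparts in all 4 libraries, and Psmb10 lies below Psmb7 in all 4.

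The 19S ATPase genes, Psmc1 to Psmc6, encode the ring that unfolds substrates and feeds them into the core. Their levels lay between 40.0 and 96.0 FPKM in Metrn cKO 1 and between 40.64 and 77.4 in Metrn cKO 2. They lay between 41.5 and 75.5 in Metrn f/f 1 and between 46.1 and 109 in Metrn f/f 2. As deposited, their median log2 difference of Metrn f/f 2 from Metrn f/f 1 was 0.53. It was 0.90 for the alpha ring and 1.24 for the constitutive beta ring. With the length trend described further on removed, the 3 medians were 0.20, 0.14 and 0.27 in the same order. The median difference of Metrn cKO 1 from Metrn cKO 2 was 0.31, 0.28 and 0.64 as deposited in that order. With the trend removed it was 0.35, 0.25 and 0.41. Psmc5 had 73.7 and 59.4 FPKM in Metrn cKO, against 63.4 and 92.0 FPKM in Metrn f/f, with the most negative log2 fold change of the ring at -0.20 (SE 0.41). Psmc6 had 40.0 and 40.64 FPKM in Metrn cKO, against 42.0 and 46.1 FPKM in Metrn f/f. Its groups did not overlap, yet the log2 fold change of -0.12 was a small part of its standard error of 0.37.

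The non-ATPase genes of the 19S particle, which encode its scaffold, ubiquitin receptors and deubiquitinase, split in direction. Of 11 genes, 4 had a log2 fold change above 0 and 7 below 0, with a median of -0.09. Psmd1, the largest scaffold subunit, had 37.4 and 44.5 FPKM in Metrn cKO, against 43.0 and 25.9 FPKM in Metrn f/f (log2 fold change 0.28, SE 0.42). Here Metrn f/f 2 was the lowest library, and without it the log2 fold change was -0.07. Psmd8, a lid subunit, had 69.3 and 55.9 FPKM in Metrn cKO, against 54.3 and 111 FPKM in Metrn f/f (log2 fold change -0.31, SE 0.47). Psmd3, a lid subunit, was nearly even, with 62.2 and 61.8 FPKM in Metrn cKO, against 64.1 and 64.2 FPKM in Metrn f/f. Psmd14, which encodes the deubiquitinase, had 60.2 and 44.1 FPKM in Metrn cKO, against 43.9 and 56.4 FPKM in Metrn f/f.

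Among the activators, Psme1 and Psme2 encode the PA28 alpha and beta subunits, which are induced by interferon gamma and cap the core particle. The genes lie 5911 bases apart on chromosome 14, with Psme1 at 55578123 to 55581529 and Psme2 at 55587441 to 55591113. Psme1 had 228 and 200.2 FPKM in Metrn cKO, against 191 and 373 FPKM in Metrn f/f (log2 fold change -0.32, SE 0.52). Psme2 had 96.9 and 63.1 FPKM in Metrn cKO, against 56.3 and 156 FPKM in Metrn f/f (log2 fold change -0.26, SE 0.58). Psme1 exceeded Psme2 by 2.35 and 3.17 times in Metrn cKO and by 3.40 and 2.38 times in Metrn f/f. Psme2b, the copy of Psme2, had 34.6 and 36.4 FPKM in Metrn cKO and 31.5 and 53.5 FPKM in Metrn f/f, and reads shared between both genes make their levels uncertain. Psme3, the PA28 gamma subunit of the nucleus, had 62.2 and 58.4 FPKM in Metrn cKO, against 63.1 and 58.8 FPKM in Metrn f/f. The groups overlapped, and the gene was nearly level as deposited. With the length trend removed, Psme3 deviated from its mean by 0.11 and -0.23 in Metrn cKO, against -0.06 and 0.18 in Metrn f/f, which was a wider range than that of Psme1, at -0.05 and 0.04 in Metrn cKO and 0.11 and -0.10 in Metrn f/f. Psme4, which encodes the large activator PA200, had 5.18 and 11.6 FPKM in Metrn cKO, against 11.8 and 3.94 FPKM in Metrn f/f. It was low in Metrn cKO 1 and Metrn f/f 2, and a log2 fold change of 0.15 (SE 0.67) turned to -0.53 when Metrn f/f 2 was left out and to -0.36 when Metrn cKO 2 was. Psmf1, the inhibitor PI31, stayed between 8.08 and 10.1 FPKM.

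The assembly chaperones help to put the particles together without staying in them. Psmg1 to Psmg4 help build the alpha ring, and all 4 had a log2 fold change below 0, with a median of -0.49. This median was -0.18 with the length trend removed, and 0.0077 as deposited without Metrn f/f 2. Psmg3 had 20.3 and 19.01 FPKM in Metrn cKO, against 21.7 and 46.0 FPKM in Metrn f/f. The groups did not overlap (log2 fold change -0.66, SE 0.48, unadjusted p = 0.214 by limma), but Metrn f/f 1 lay close to the Metrn cKO values, and leaving out Metrn f/f 2 gave -0.13. Psmg4 had 37.5 and 48.6 FPKM in Metrn cKO, against 34.7 and 99.5 FPKM in Metrn f/f. The chaperones of the 19S base were low, with Psmd9 at 8.95 and 10.003 FPKM in Metrn cKO and 8.10 and 16.6 FPKM in Metrn f/f (log2 fold change -0.28, SE 0.51). Psmd5 had 23.6 and 30.8 FPKM in Metrn cKO, against 25.4 and 26.0 FPKM in Metrn f/f (log2 fold change 0.07, SE 0.39). Of the other symbol matches, Psme3ip1 had 28.9 and 24.8 FPKM in Metrn cKO and 26.7 and 26.1 FPKM in Metrn f/f, with a log2 fold change of 0.02 (SE 0.38), and Psmc3ip lay between 11.7 and 19.7 FPKM.

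Mice of 1 genotype differed in these genes, the Metrn f/f mice most. Metrn f/f 2 was above Metrn f/f 1 in 44 of 50 members, and in 12 of 50 by at least 2-fold on the log2(FPKM + 1) scale, against 13.7% of all tested genes. The median log2 difference was 0.77 for the members and -0.23 for all tested genes. Metrn cKO 1 was above Metrn cKO 2 in 34 of 50 members, with a median of 0.20 for the members and -0.24 for all tested genes. None of the 50 reached 2-fold, against 6.72% of all tested genes. Metrn cKO 2 and Metrn f/f 1, of different genotypes, differed by a median of 0.05 over the members and 0.04 over all tested genes, and none of the 50 members reached 2-fold, against 0.745% of all tested genes.

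Transcript length moved with these differences, across all tested genes and not the proteasome alone. A length, the median over the protein-coding transcripts of a gene in GENCODE, was available for 49 of the 50 tested members and 10971 tested genes, and may not be the isoform that LSK cells use. The members were short, with a median of 1358 bases against 2620 over all tested genes. Across the 49 members, Pearson's r of log2 length with the deviation from the gene's mean was -0.08 in Metrn cKO 1, 0.64 in Metrn cKO 2, 0.71 in Metrn f/f 1 and -0.78 in Metrn f/f 2. Across the 10971 genes it was -0.15, 0.55, 0.66 and -0.72 in that order. The points share their libraries and their scaling, so these values only describe the libraries. The median log2 difference of Metrn f/f 2 from Metrn f/f 1 was 1.21 for the 11 members of up to 1000 bases and 0.75 for the 27 members above 1000 and up to 2000 bases. It was 0.00 for the 9 members above 2000 and up to 4000 bases and -0.67 for the 2 longer ones, Psmd5 and Psme4. All tested genes in the same classes had medians of 1.17, 0.41, -0.41 and -1.25. Psmd1 and Psme4, at -0.71 and -1.37, and the short members of the beta ring lay on the same side as genes of their length in general. Other members did not: Psmd5 had 0.03 at 4397 bases, Psma2 had 1.164 at 2911 bases and Psmd9 had 0.95 at 2597 bases. The marker sums of mature cells given above differ between the same libraries, and their part in this was not tested.

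**Figure D4:**
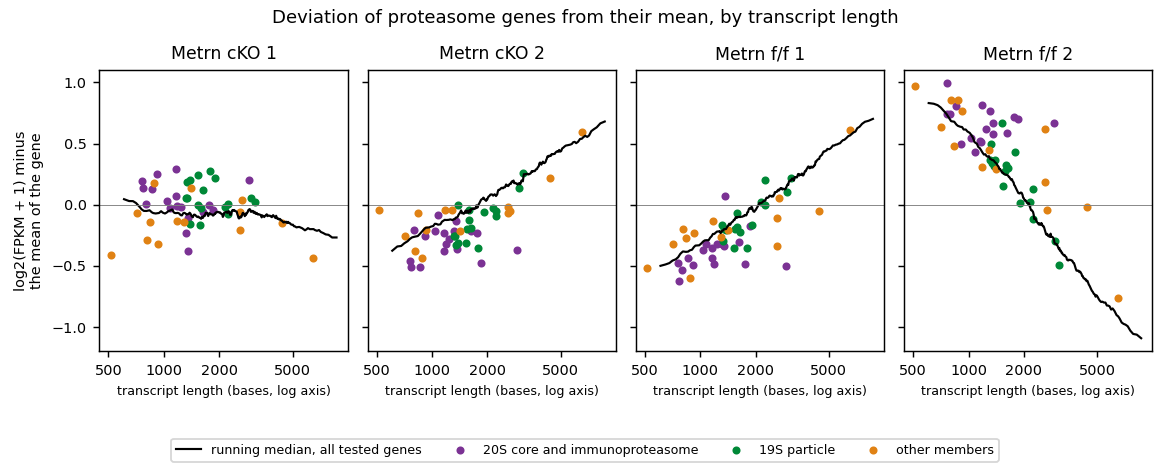
Deviation of each tested proteasome gene from its own mean over the 4 libraries, on the log2(FPKM + 1) scale, against transcript length in bases on a log axis, in 1 panel per library. The line is the running median of all tested genes ordered by length, and in Metrn f/f 2 both the line and the points fall with length (r = -0.78 over 49 members).

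The length trend of all tested genes was then removed from each library, an alternative added after the data were seen. Most of the gap between the Metrn f/f libraries closed, and that between the Metrn cKO libraries did not. The median difference of Metrn cKO 1 from Metrn cKO 2 was 0.24 over 49 members, against 0.20 as deposited over 50. For all tested genes it was 0.01, against -0.24 as deposited. The median difference of Metrn f/f 2 from Metrn f/f 1 became 0.14 over 49 members, against 0.77 as deposited over 50. For the constitutive beta ring it became 0.27, against 1.24, and for the alpha ring 0.14, against 0.90. The immunoproteasome genes kept more of it than the core rings, at 0.53 against 0.91 as deposited. The median of the 3 chaperones of the 19S base rose, at 1.033 against 0.49 as deposited, but the genes differed. With the trend removed, Psmd5 and Psmd9 deviated by 0.61 and 0.81 in Metrn f/f 2 and by -0.42 and -0.45 in Metrn f/f 1. Psmd10, the gene with the difference of 0.49 as deposited, stood at -0.02 in Metrn f/f 2 and -0.05 in Metrn f/f 1. The median deviation of the immunoproteasome genes with the trend removed was -0.02 and -0.13 in Metrn cKO, against -0.16 and 0.38 in Metrn f/f, while that of the constitutive beta ring was 0.17 and -0.24 in Metrn cKO, against -0.19 and 0.17 in Metrn f/f. These medians cover members that went different ways. All 3 immunoproteasome genes stood highest in Metrn f/f 2 with the trend removed, at 0.38 for Psmb8, 0.24 for Psmb9 and 0.40 for Psmb10, and so did Psmb1 at 0.57 and Psmb4 at 0.38 among the constitutive beta genes and Psma2 at 0.96 and Psma3 at 0.60 in the alpha ring. Psmb7 stood at 0.37 in Metrn cKO 1, against 0.08 in Metrn f/f 2. The pattern was therefore not particular to the immunoproteasome. The macrophage and monocyte markers were also highest in Metrn f/f 2, at 1877 FPKM in sum against 1149 in Metrn cKO 1, and the neutrophil markers were highest in Metrn cKO 1. Their part in the immunoproteasome levels was not tested. The median log2 fold change of the members was -0.03 with the trend removed, and no member passed the test.

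**Figure D5:**
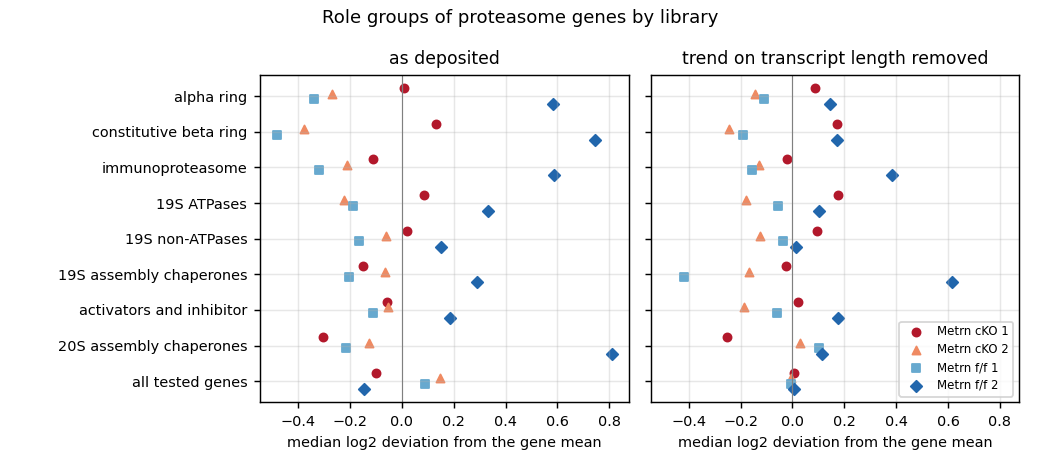
Median deviation from the gene mean for each role group and for all tested genes, in each library, as deposited (left) and with the trend on transcript length removed (right). In Metrn f/f 2 the immunoproteasome point moves from 0.59 to 0.38, and that of the 19S chaperones from 0.29 to 0.61. The constitutive beta ring points of Metrn cKO 1 and Metrn f/f 2 come together at 0.17.

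The members were also split by each motif in turn, by the median log2 difference of Metrn f/f 2 from Metrn f/f 1. It was 0.51 in the 16 tested members with the ETS core and 0.91 in the 26 without it, with median lengths of 1591 and 1314 bases. It was 0.57 in the 6 with the antioxidant response core and 0.79 in the 36 without, and 0.96 in the 5 with the interferon-stimulated response core and 0.75 in the 37 without. It was 0.78 in the 15 with the CCAAT box and 0.87 in the 27 without, and 0.89 in the 3 with the gamma-activated site and 0.78 in the 39 without. The median length also differed between members that held different motifs, at 766 bases with the interferon-stimulated response core and 2069 bases with the antioxidant response core, and the part of length in these values was not tested.

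Other genes of the pathway were read from lists fixed with the members. Of 13 tested partners of the proteasome outside the symbol rule, 6 had a log2 fold change above 0 and 7 below 0, and none passed. Pomp, which matures the core particle, had 134 and 93.4 FPKM in Metrn cKO, against 98.6 and 210.3 FPKM in Metrn f/f (log2 fold change -0.36, SE 0.52). It was highest in Metrn f/f 2 and next in Metrn cKO 1, as the beta ring genes were. Ubqln1, a shuttle for ubiquitinated proteins, had 33.9 and 31.9 FPKM in Metrn cKO, against 33.5 and 23.3 FPKM in Metrn f/f (log2 fold change 0.23, SE 0.40). Ecpas, a large proteasome adaptor, had 8.88 and 20.3 FPKM in Metrn cKO, against 20.5 and 5.12 FPKM in Metrn f/f, and was named after its values were seen because it shows the order of Psme4.

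Of the 6 ubiquitin and E1 enzyme genes, 2 were above 0 and 4 below, and none passed. Uba6, an activating enzyme, had 3.02 and 7.02 FPKM in Metrn cKO, against 4.47 and 1.63 FPKM in Metrn f/f (log2 fold change 0.58, SE 0.65). Rps27a, a ubiquitin and ribosomal protein fusion gene with related copies that can share its reads, had 530.2 and 204 FPKM in Metrn cKO, against 437 and 535 FPKM in Metrn f/f (log2 fold change -0.55, SE 0.64).

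Genes that load MHC class I with proteasome products did not follow the immunoproteasome across libraries in every case. Psmb9 and the peptide transporter gene Tap1 start head to head on chromosome 17 and overlap by 212 bases in GENCODE, and Psmb8 lies 2072 bases from Tap2. Tap1 had 58.7 and 88.9 FPKM in Metrn cKO, against 87.7 and 54.5 FPKM in Metrn f/f, and Tap2 had 76.3 and 123 against 121 and 73.7 FPKM. Both transporter genes were thus lowest in Metrn f/f 2, where their neighbours Psmb8 and Psmb9 were highest. Their transcripts are longer, at 2783.5 bases for Tap1 and 3442 for Tap2, against 1628 for Psmb8 and 1352 for Psmb9. The median difference of Metrn f/f 2 from Metrn f/f 1 over the 11 tested genes of the MHC class I list was -0.32 as deposited and 0.06 with the length trend removed. Tap1 and Tap2 were named after their values were seen. Of these 11 genes, 6 had a log2 fold change above 0 and 5 below, with a median of 0.00, and none passed. Nlrc5, the transactivator of MHC class I genes, had 6.19 and 18.0 FPKM in Metrn cKO, against 18.8 and 3.76 FPKM in Metrn f/f (log2 fold change 0.27, SE 0.82). H2-K1, a class I heavy chain gene, had 728 and 913 FPKM in Metrn cKO, against 905 and 1222 FPKM in Metrn f/f (log2 fold change -0.37, SE 0.68).

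Of 13 listed transcriptional regulators of proteasome genes, 11 had a log2 fold change above 0 and 2 below, with a median of 0.33, and none passed. Of all 13148 tested genes, 7570 were above 0. With the length trend removed the median of the regulators was 0.10. Irf1, a factor that drives immunoproteasome genes, had 45.2 and 56.8 FPKM in Metrn cKO, against 51.8 and 56.2 FPKM in Metrn f/f (log2 fold change -0.09, SE 0.38). Foxm1, a cell cycle factor, had 23.2 and 22.3 FPKM in Metrn cKO, against 21.9 and 9.003 FPKM in Metrn f/f. Its groups did not overlap, and the log2 fold change was 0.65 (SE 0.52), or 0.05 with Metrn f/f 2 left out. Both Metrn cKO values lay above both Metrn f/f values in 2 of the 13 regulators, against 6.31% of all tested genes. Both lay below in 0 of the 13, against 5.73%. The other gene of the 2 was Nfe2l2, with 35.1 and 32.1 FPKM in Metrn cKO, against 22.6 and 27.8 FPKM in Metrn f/f. Nfe2l1, which raises proteasome genes when proteasome activity is short, had 16.4 and 26.5 FPKM in Metrn cKO, against 25.2 and 10.6 FPKM in Metrn f/f, and was named after its values were seen. It was lowest in Metrn f/f 2, the library with the highest core subunit levels. The 13 regulators had a median length of 3162 bases, and Nfe2l1 had 3869.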

How the data were processed

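RNA-seq of sorted LSK cells gave 1 library per mouse, 2 Metrn cKO and 2 Metrn f/f. Tools listed in the submitters' processing notes, with no role for each, are HISAT2 2.1, featureCounts 1.6.4, DESeq2 2.11.40.6, cutadapt 1.16.5 and bcl2fastq 2.19, on the build mm10. The authors deposited 1 value per gene symbol in each library, taken as FPKM because they are decimal, at least 0 and differ in sum between libraries. The headers name no unit. The strand setting and the annotation were not stated in the sources read. FPKM is a share of a library, so abundant transcripts lower all others, and reads of near-identical genes can be split. No read totals were used, so no counting interval was given.

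Values of log2(FPKM + 1) were fitted with limma 3.58.1 in R 4.3.3 over the 13148 genes that reached 1 FPKM in 2 or more libraries, with an intensity trend, 2-sided, with Benjamini-Hochberg adjustment and a threshold of 0.05. Fold changes on this scale understate those of low genes. The fit and the removal of the length trend (lowess on log2 length) were tested on simulated data. Coordinates and lengths came from GENCODE mouse release 21 (GRCm38, called mm10) and start regions from RefSeq (GRCm38.p6). Same-numbered libraries did not deviate together (r = -0.71), so numbers were not treated as pairs. Alternatives were another pseudocount, no filter, scaling to a common sum, median-ratio scaling, no trend, a replicate block and each library left out. Named genes were the immunoproteasome genes, their counterparts, Psme1 and Psme2, the extremes of each role group and the smallest p of each pathway list in each direction, and others were added for their values in the report. The members, lists and tests were chosen with earlier results of these data known, so no list was tested.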

Additional observations from a re-analysis of the deposited data

How the results depend on the processing

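No proteasome gene passed under any alternative. Among all genes, against 0 calls, the replicate block gave 3 higher and 1 lower, and a crossed pairing of the numbers, added after the data were seen, gave 37 higher and 65 lower. With each library left out in turn there were 0 to 32 higher and 0 to 5 lower calls (32 higher and 2 lower without Metrn cKO 2, 0 higher and 5 lower without Metrn cKO 1), and a lone library was assumed to vary like the other group. Leaving out each library, the median log2 fold change ranged over -0.69 to 0.27 for alpha ring, -0.88 to 0.37 for constitutive beta ring, -0.73 to 0.17 for immunoproteasome, -0.41 to 0.11 for 19S ATPases, -0.14 to 0.12 for 19S non-ATPases, -0.33 to 0.16 for 19S assembly chaperones, -0.22 to 0.072 for activators and inhibitor, -1.11 to 0.0077 for 20S assembly chaperones, -0.54 to 0.17 for other symbol matches and -0.55 to 0.17 for all members. The difference of the mean log2 ratio ranged over -0.26 to 0.25 for Psmb8/Psmb5, -0.22 to 0.15 for Psmb9/Psmb6 and -0.71 to -0.012 for Psmb10/Psmb7. For single genes the log2 fold change ranged over -0.73 to 0.17 for Psmb8, -0.70 to 0.21 for Psmb9, -0.99 to 0.097 for Psmb10, -0.88 to 0.34 for Psmb5, -0.85 to 0.43 for Psmb6, -0.57 to 0.39 for Psmb7, -0.80 to 0.16 for Psme1, -0.99 to 0.47 for Psme2 and -1.04 to -0.44 for Psma8. In the same runs the log2 fold change ranged over -0.997 to 0.25 for Psmb2, -0.47 to 0.061 for Psmc5, -0.074 to 0.64 for Psmd1, -0.82 to 0.20 for Psmd8, -0.12 to 0.25 for Psmd5, -0.75 to 0.20 for Psmd9, -0.53 to 0.84 for Psme4, -1.19 to -0.13 for Psmg3 and -0.086 to 0.13 for Psme3ip1. Likewise the log2 fold change ranged over -0.58 to 0.17 for Psme2b, -0.026 to 0.48 for Ubqln1, -0.90 to 0.18 for Pomp, 0.055 to 1.11 for Uba6, -1.24 to 0.13 for Rps27a, -0.76 to 1.30 for Nlrc5, -0.58 to -0.15 for H2-K1, 0.051 to 1.25 for Foxm1 and -0.25 to 0.074 for Irf1. Among the runs that left out a library, most changes of sign came without Metrn f/f 2. Scaling to a common sum moved the median of all genes to 0.15, against 0.07 as deposited, and gave 0.0029 for Psmb7 and 0.0019 for Irf1, with medians of 0.0043 for 19S assembly chaperones and 0.0094 for activators and inhibitor, while median-ratio scaling gave -0.028 for Psme3ip1. Removing the length trend, also added later, gave 0.030 for Psmb5, 0.083 for Psmb6, 0.12 for Psmb7, 0.0077 for Psme2, 0.074 for Psme2b, -0.19 for Psmd5, -0.19 for Psme4 and -0.051 for Nlrc5, and a median of 0.034 for the other symbol matches. The smaller pseudocount, the absent filter and the replicate block turned no sign of a group median or named gene. The cause of these changes was not tested, and unknown depth limits all low values.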
